A study of Rattus norvegicus with 54 samples.

Results

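The miRNAs of plasma were compared with those of liver in rats that had received a vehicle and no toxicant. The 12 libraries used here were picked by their labels from 54, and they are all the plasma and liver libraries of the vehicle groups that accompany the acetaminophen (APAP) and carbon tetrachloride (CCl4) studies. Each sample type had 6 libraries, 3 from rats given 0.5% methylcellulose and 3 from rats given corn oil. All were male Sprague-Dawley rats of 9 weeks, dosed once by mouth and sampled 24 h later. Every rat was anaesthetised with ketamine, xylazine and acepromazine before it was bled out. Every mature miRNA in the count table was a candidate, 832 rows in all. Some mature miRNAs are listed again for each locus that encodes them, which adds 79 copy rows, and a read can count toward several copies. Each mature miRNA is therefore named once, and copies are not independent evidence. Rows beyond the most read copy of each miRNA held 10.6% to 13.9% of counts in plasma libraries and 4.24% to 4.78% in liver libraries. Library totals include them, whereas the share of a miRNA, of a list or of the most abundant miRNAs counts 1 row per miRNA. Plasma and liver of a vehicle group can come from the same rats. The libraries carry no rat number of their own, and their replicate numbers did not pair plasma with liver.

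A miRNA is cut from a hairpin precursor, whose arms give the -5p and -3p products, and guides Argonaute proteins to messenger RNAs that match its seed, bases 2 to 8. Hepatocytes are the main liver cell and are known for their very high content of miR-122. Cell-free miRNAs in plasma travel in vesicles, in lipoproteins and bound to Argonaute, and are thought to come largely from blood cells and the vessel wall, which is why liver miRNAs that appear in plasma are used as signs of liver injury.

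The sequences below are those of the miRNAs that carry the contrast, from RefSeq on the GRCr8 build, with the seed in capitals. The first 5 stood higher in plasma, the next 4 higher in liver, and the last 7 are seed mates whose direction differed or was less certain.
miR-191a-5p: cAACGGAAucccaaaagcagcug
let-7i-5p: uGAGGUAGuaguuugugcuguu
miR-128-3p: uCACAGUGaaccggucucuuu
miR-133a-3p: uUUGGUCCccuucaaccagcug
miR-488-3p: uUGAAAGGcuguuucuugguc
miR-122-5p: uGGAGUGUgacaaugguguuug
miR-192-5p: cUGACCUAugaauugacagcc
miR-194-5p: uGUAACAGcaacuccaugugga
miR-22-3p: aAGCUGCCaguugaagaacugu
miR-23a-3p: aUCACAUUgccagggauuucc
miR-23b-3p: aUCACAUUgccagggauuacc
miR-27a-3p: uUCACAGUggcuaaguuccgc
miR-27b-3p: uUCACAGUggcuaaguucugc
miR-15b-5p: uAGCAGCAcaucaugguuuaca
miR-16-5p: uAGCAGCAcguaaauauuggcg
miR-195-5p: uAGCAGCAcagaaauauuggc
In the same build miR-122-5p lies at chr18:61028831-61028852 and miR-192-5p at chr1:212994232-212994252, both on the plus strand. miR-191a-5p lies at chr8:118142641-118142663 and miR-22-3p at chr10:60805387-60805408, also on the plus strand. The miR-23 pair differs by U19A and the miR-27 pair by C19U, counted from 1 at the 5′ end with the a member first. Of the 204 distinct miRNAs tested, 89.7% had a sequence in the RefSeq table.

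Plasma libraries were shallower than liver libraries, with 21627 to 406613 counted reads against 410242 to 686738. Of the 832 rows, 587 had a read in these 12 libraries, 410 of them in both sample types, 61 in plasma alone and 116 in liver alone. When every library was thinned to 21627 reads, the numbers were 267 in both, 73 in plasma alone and 54 in liver alone. Rank correlation over the 233 rows tested was 0.983 to 0.990 between liver libraries, 0.853 to 0.986 between plasma libraries and 0.471 to 0.579 between a plasma and a liver library, given as a description since all share a kit and a counting method. The 3 shallowest plasma libraries, methylcellulose 3, corn oil 2 and corn oil 3, held 21627, 70736 and 96270 reads and stood apart in several abundant miRNAs. Their part in each result was examined by leaving them out. The column headers carry the code L5 for all 6 liver libraries, L8 for methylcellulose plasma and L1 for corn oil plasma, and plasma RNA was isolated by another procedure than tissue RNA, so that these differences cannot be told apart from sample type. Read counts give shares of a library, not amounts per mL or per cell, and p-values here measure only the spread between these samples.

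The composition of the libraries differed from the top down. miR-191a-5p, a miRNA often used as a reference for its steady level, was the most abundant miRNA of every plasma library. It took 15.5%, 15.3% and 19.3% of reads in methylcellulose plasma and 13.9%, 17.4% and 19.6% in corn oil plasma, against 0.710% to 0.847% in liver. miR-22-3p led every liver library with 20.7% to 24.6% of reads, a median of 21.7%, and held 5.93% to 11.7% in plasma, where its median was 7.15%. miR-192-5p, a miRNA of hepatocytes and other epithelia that p53 induces, came next in liver with 14.8% to 18.1% and held 0.313% to 1.76% in plasma. Counted with 1 row each, the 10 most abundant miRNAs took 72.7% to 74.5% of reads in liver and 55.1% to 64.0% in plasma. By this measure liver was the more concentrated pool in every library. Copy rows stay in the totals and were a larger part of plasma counts, which lowers plasma shares more. As the samples are bulk RNA, fewer cells of a type and less RNA per cell cannot be told apart.

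Across all rows, 233 passed the filter on low counts and were tested with edgeR's quasi-likelihood test and Benjamini-Hochberg adjustment at 0.05. Under TMM scaling, which assumes that most rows do not differ, 87 rows (37.3%) were higher in plasma and 88 (37.8%) lower, 75.1% in either direction. Leaving out 1 library moved the number lower to between 92 and 144, the highest without plasma corn oil 2, and 88 was the fewest given by any of the 12 libraries as TMM reference. The zero point moved with the scaling, since the median log2 difference over all rows was -0.13 with TMM, -0.69 with RLE factors, -0.69 with upper-quartile factors and 0.42 with total counts. The split moved with it, to 72 higher and 121 lower with RLE, 71 and 117 with upper-quartile factors and 111 and 70 with total counts. It moved within TMM too, since the median was between -0.90 and -0.82 when any 1 liver library was left out. With all 12 libraries and plasma methylcellulose 3 as TMM reference it was -0.94. The rows below are therefore called by their result under all 4 scalings, which 71 rows (30.5%) passed as higher in plasma and 70 (30.0%) as lower, or 61 and 65 distinct miRNAs. All 141 had the same sign within each vehicle in 1 fit of the 4 groups, and all 141 kept their call without the 3 shallowest plasma libraries. Fitted on the methylcellulose libraries alone, 133 of the 140 rows still tested kept the call. On the corn oil libraries alone, 129 of 139 did. The call was lost by 7 rows when 1 library was left out, namely miR-181a-5p and let-7f-5p with 1 copy row each, miR-23a-3p, miR-17-5p and miR-872-3p, named after their values were seen. The 30.5% and 30.0% are the background against which the counts of each list below are read. The 6 plasma values lay clear of the 6 liver values in 138 rows (59.2%), above them in 65 (27.9%) and below them in 73 (31.3%). Fitted log2 differences are from the TMM fit as the mean ± SE, plasma minus liver, and levels are CPM, read counts scaled to a common library size after TMM.

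**Figure D1:**
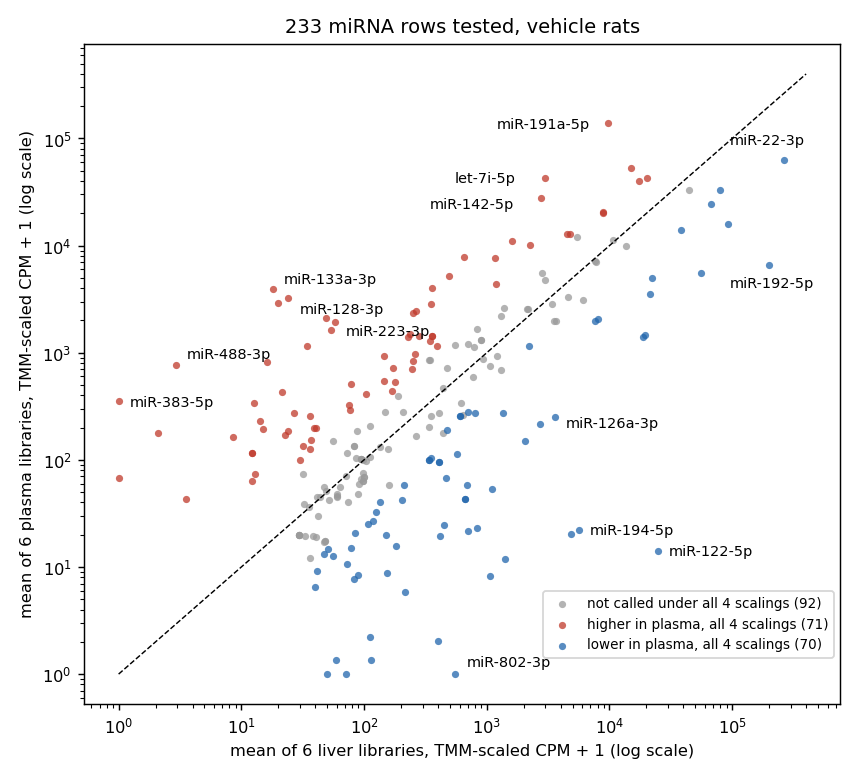
Mean level of each of the 233 rows tested in the 6 plasma libraries (vertical axis) against the 6 liver libraries (horizontal axis), both as TMM-scaled CPM + 1 on log scales. The dashed line marks equal levels, and the 71 red and 70 blue points are the rows called higher and lower in plasma under all 4 scalings.

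The 6 liver-enriched miRNAs that the study itself names were lower in plasma in all 6 cases under all 4 scalings, with a median log2 difference of -6.85 beside -0.13 over all rows. Since the study chose this list for its liver content, its direction is not independent evidence. miR-122-5p, the hallmark miRNA of hepatocytes, stood at 25158, 25954 and 24970 CPM in methylcellulose liver and at 23500, 23386 and 26361 CPM in corn oil liver. In plasma it stood at 0, 37.3 and 0 CPM with methylcellulose and at 15.1, 12.2 and 14.1 CPM with corn oil, a total of 22 reads among 1187125. The groups were far apart, and the fitted log2 difference was -10.60 ± 0.52 (edgeR adjusted p = 3.7e-10). miR-802-3p had no read in plasma and 1555 in liver, at 460 to 721 CPM, so that it was at least 252-fold higher in liver against a floor of 3 reads over the plasma group. A count of 0 in plasma allows a share of up to 0.000253% of reads, counting error only. Its partner arm miR-802-5p had 11 plasma reads against 2986 in liver and fell by 6.97 ± 0.49 on the log2 scale. miR-122-3p (-6.74 ± 0.40), miR-365-3p (-4.97 ± 0.33) and miR-31a-5p (-4.19 ± 0.46) were lower as well. miR-31a-5p was the most variable of them in plasma, from 0 to 152 CPM, and each of its plasma libraries still lay below the liver range of 924 to 1375 CPM.

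Of 16 other miRNAs tested from a liver list of 18, 14 were lower in plasma under all 4 scalings and none higher, with a median log2 difference of -2.59. Since this list was drawn up for liver, its direction is not independent evidence. Together the 18 made up 60.3% to 62.9% of liver reads and 16.4% to 23.4% of plasma reads. Not all were abundant in liver, where miR-193a-5p had 5 reads and miR-33-5p 64, against 755163 for miR-22-3p and 562159 for miR-192-5p. The miR-192 and miR-194-2 hairpins sit together in the genome, and miR-192-5p, miR-192-3p and miR-194-3p were all lower in plasma. miR-194-5p is also listed at another locus, so its value is not that of this cluster alone. miR-194-5p, known from hepatocytes and gut epithelium, had 35 reads in plasma and 15903 in liver. Its levels were 0, 21.5 and 41.0 CPM at the lowest, median and highest plasma library and 4837, 5637 and 6269 CPM in liver, a log2 difference of -7.81 ± 0.31 (edgeR adjusted p = 5.67e-11). miR-192-5p differed by less, -4.98 ± 0.36, and its plasma share in corn oil 2 and corn oil 3 was 1.22% and 1.76%, above the other 4 libraries at 0.313% to 0.741%. miR-193a-3p, at 34 reads in plasma and 2025 in liver, was lower by -4.85 ± 0.28. miR-21-5p, which is raised in many injured and growing tissues, was lower by -2.54 ± 0.35, and its plasma share ran from 0.744% in corn oil 2 to 2.95% in corn oil 1. miR-22-3p was lower by -2.07 ± 0.18, and miR-148a-3p, at -1.31 ± 0.27, differed least of the 14 that passed. miR-26a-5p did not pass, at -0.50 ± 0.41 (edgeR adjusted p = 0.269), and its plasma share spanned 0.647% in corn oil 2 to 6.61% in methylcellulose 1 around a liver range of 3.40% to 3.96%. It was called lower with RLE (-1.13) and upper-quartile factors (-1.20), without plasma corn oil 2 (-1.11) and without any 1 liver library (-1.46 to -1.33).

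**Figure D2:**
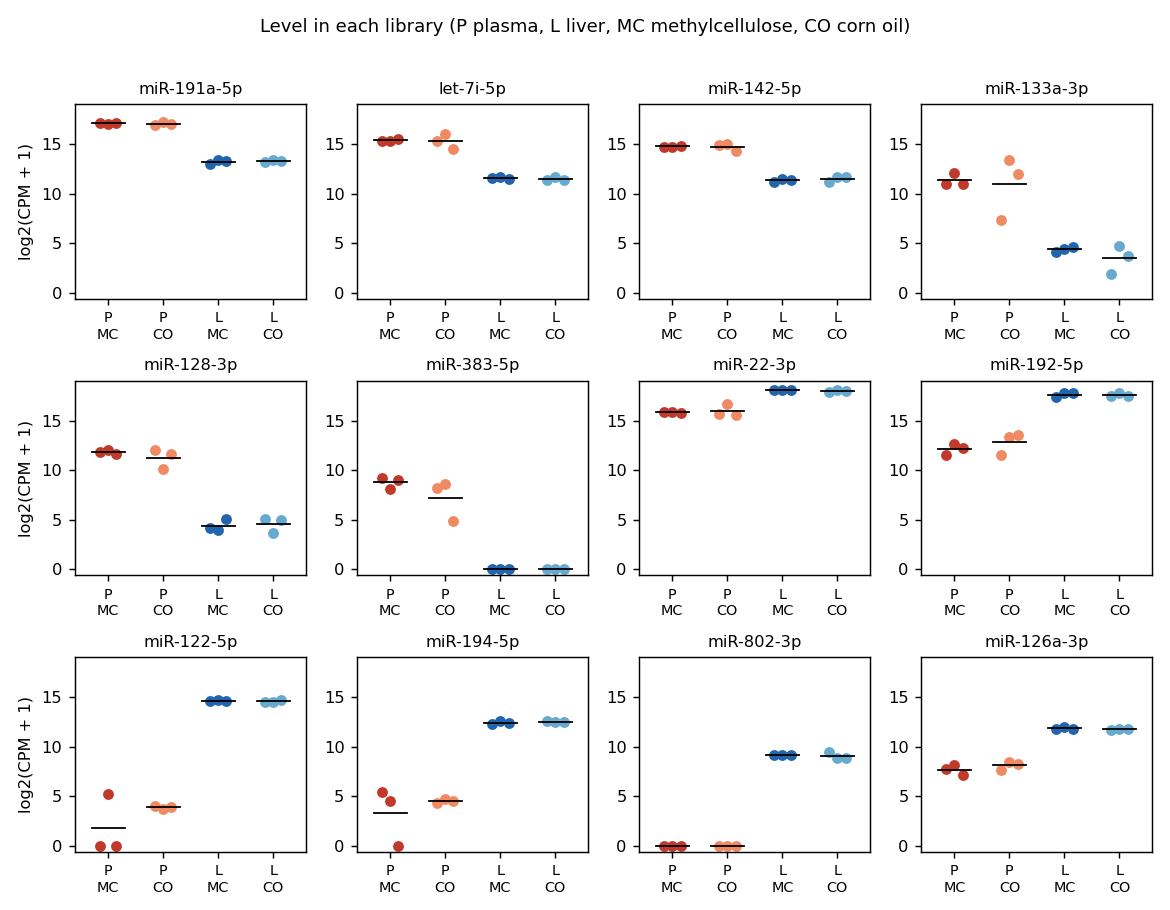
Level of 12 miRNAs in each library as log2 of TMM-scaled CPM + 1, with 3 points per group and a bar at the mean of the log2 values. miR-191a-5p, let-7i-5p and miR-142-5p were tight in both sample types, whereas miR-133a-3p spread over 162 to 11119 CPM in plasma, and miR-122-5p and miR-802-3p sat at or near 0 in plasma.

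Among the most abundant plasma miRNAs, let-7i-5p matched miR-191a-5p in the size of its difference. It held 3.47%, 4.64% and 7.55% of reads at the lowest, median and highest plasma library and 0.228%, 0.240% and 0.269% in liver. The log2 difference was 3.85 ± 0.23 for let-7i-5p (edgeR adjusted p = 2.42e-09) and 3.82 ± 0.15 for miR-191a-5p (edgeR adjusted p = 5.67e-11), with no overlap for either. miR-92a-3p, a member of the miR-17-92 cluster that is rich in red cells, held 5.35% to 8.73% in plasma against 1.14% to 1.34% in liver, a log2 difference of 1.82 ± 0.16. The row of its other locus, miR-92a-3p_2, held fewer reads and stood at 3.41 ± 0.21, a value chosen after it was seen. let-7f-5p was higher by 1.19 ± 0.16 and miR-181a-5p by 1.19 ± 0.27, and neither call held in every fit. miR-181a-5p fell short of the threshold without any 1 of the 6 liver libraries, at 0.31 to 0.38 (edgeR adjusted p = 0.150 to 0.249). let-7f-5p stood at 0.39 to 0.42 in those fits and lost its call without liver methylcellulose 1, methylcellulose 3 or corn oil 1. With every library kept and plasma methylcellulose 3 as TMM reference, miR-181a-5p was likewise not called, at 0.36 (edgeR adjusted p = 0.131). The median log2 difference over all rows was then -0.94, so a lost call here need not reflect the library left out. The groups overlapped for miR-181a-5p, whose lowest plasma value was 8858 CPM in corn oil 2 and whose highest liver value was 10385 CPM. miR-143-3p, a miRNA of smooth muscle, was among the 10 most abundant in both and was lower in plasma by -1.45 ± 0.18.

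White blood cell miRNAs were higher in plasma in 9 of the 11 tested, of 13 listed, under all 4 scalings, and the list's median log2 difference was 2.78. Its members summed to 6.05% to 8.62% of plasma reads and 1.04% to 1.23% of liver reads. miR-142-5p, made by nearly all blood-forming cells, held 2.92% to 3.87% of plasma reads and 0.200% to 0.279% of liver reads, a log2 difference of 3.32 ± 0.19 (edgeR adjusted p = 1.71e-09). miR-223-3p, the leading miRNA of neutrophils and monocytes, was higher by 5.13 ± 0.55. Its plasma values were 3114, 2276 and 637 CPM with methylcellulose and 3676, 281 and 1740 CPM with corn oil, against 46.9 to 65.7 CPM in liver. The lowest plasma value came from corn oil 2 and still exceeded every liver library. Its partner arm miR-223-5p was tighter, 134 to 212 CPM in plasma and 1.82 to 11.6 CPM in liver, with a log2 difference of 4.41 ± 0.29. miR-150-5p, a lymphocyte miRNA, differed by 1.70 ± 0.29. miR-146a-5p and miR-155-5p, which immune stimulation induces, did not follow, at -0.96 ± 0.21 and -0.72 ± 0.36, and neither passed under all 4 scalings.

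Red blood cell miRNAs were higher in 7 of 9 tested, of 11 listed, under TMM and in 4 under all 4 scalings, beside 37.3% and 30.5% of all rows, with a median log2 difference of 1.16. They summed to 7.93% to 10.7% of plasma reads and 1.92% to 2.10% of liver reads, and miR-92a-3p alone took 5.35% to 8.73% of plasma reads. miR-451-5p, the most erythroid of all miRNAs, did not pass, at 1.00 ± 0.52 (edgeR adjusted p = 0.0910), and the 6 plasma values of 2089, 1164, 602, 4587, 232 and 1287 CPM lay on both sides of the 6 liver values of 580 to 1171 CPM. miR-144-3p and miR-144-5p, cut from the neighbouring hairpin, stood at 0.87 ± 0.33 and -0.02 ± 0.28. miR-363-3p was higher by 2.98 ± 0.37. The log2 ratio of miR-451-5p to miR-23a-3p, a usual check for lysed red cells in plasma, was 0.38 ± 0.59 in plasma and 1.03 ± 0.39 in liver (SD, n = 6 each). The difference of -0.65 was not past the threshold by a 2-sided exact permutation test within vehicles (p = 0.0650, smallest possible 0.005). miR-23a-3p was itself higher in plasma in the TMM fit (1.59 ± 0.44), so this difference between sample types gives no measure of lysed red cells.

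Endothelial and platelet miRNAs had no common direction. Under all 4 scalings 2 of 8 tested were higher and 3 lower, with a median log2 difference of 0.22. These counts are near the 30.5% and 30.0% of all rows and are no result about the list. miR-126a-3p, the best known endothelial miRNA, stood at 142 to 354 CPM in plasma and 3309 to 3922 CPM in liver, and it fell by 3.81 ± 0.24 on the log2 scale (edgeR adjusted p = 3.29e-09). Its partner miR-126a-5p fell by 3.69 ± 0.63, and its plasma values of 142 CPM in methylcellulose 3 and 73.3 CPM in corn oil 2 were far below the other 4 at 1895 to 2378 CPM. miR-151-3p was higher in plasma, 2.74 ± 0.35, and miR-24-3p was lower, -1.17 ± 0.27. The miRNAs used as plasma references were higher in 6 of 10 under all 4 scalings, none lower, with a median of 2.24. They were listed for their use in plasma, so their direction is not independent evidence. miR-425-5p, which shares a locus with miR-191, was higher by 2.65 ± 0.23, whereas miR-103-3p did not pass (0.26 ± 0.32). In the miR-17-92 cluster and its paralogs 5 of 10 tested were higher under all 4 scalings and none lower. Their median was 1.53, led by miR-19a-3p at 3.47 ± 0.40. Of the 5, miR-92a-3p, miR-18a-5p and miR-363-3p are also in the red blood cell list, so the 2 lists are not separate evidence.

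**Figure D3:**
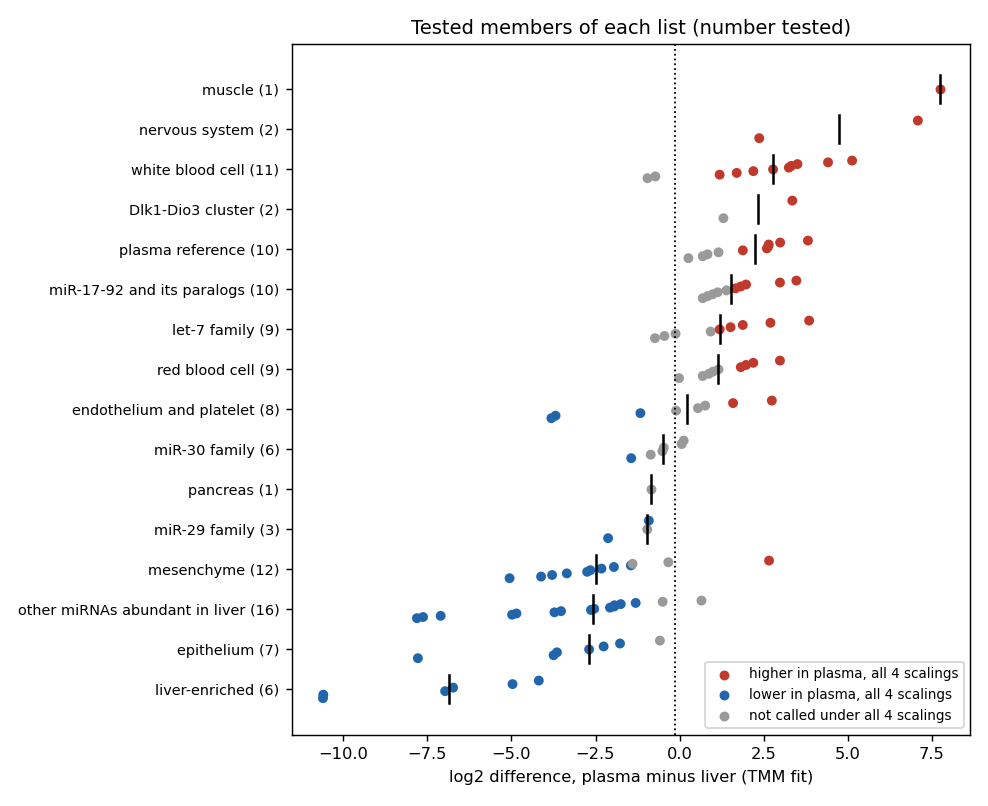
Fitted log2 difference, plasma minus liver, of each tested member of 16 lists, with the list's median as a black bar and the median of all 233 rows (-0.13) as a dotted line. The liver-enriched list lies wholly to the left and the white blood cell list mostly to the right.

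miRNAs of epithelium and of mesenchyme were mostly lower in plasma. Of 7 epithelial miRNAs tested, of 9 listed, 6 were lower under all 4 scalings, with a median log2 difference of -2.69. miR-200b-3p, which holds cells in an epithelial state, had 2 plasma reads against 1186 in liver. The ratio was 288, with an exact 95% counting interval of 79.7 to 2385 that leaves out the spread between libraries. miR-182 was lower by -3.75 ± 0.37, with plasma at 110 to 403 CPM and liver at 2009 to 3925 CPM. Of 12 mesenchymal miRNAs tested, of 13 listed, 9 were lower, 1 was higher and the median was -2.49. miR-145-5p, a smooth muscle miRNA, was lower by -2.75 ± 0.21 and miR-99a-5p by -5.06 ± 0.41. The member that was higher was miR-10b-5p, which like miR-10a-5p lies in a Hox gene cluster. miR-10a-5p, at 5.34% of the reads of the highest liver library and 1.12% of the highest plasma library, was lower by -3.35 ± 0.26. miR-10b-5p was higher by 2.66 ± 0.39 (edgeR adjusted p = 2.02e-05), with plasma at 4047, 4967, 8104, 3410, 14821 and 10289 CPM and liver at 750 to 1815 CPM, and the groups did not overlap.

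Several of the largest rises in plasma were miRNAs of muscle, brain or few known sources. Of the 7 muscle miRNAs listed only miR-133a-3p passed the filter on low counts. It stood at 1964, 4231, 2053, 162, 11119 and 4116 CPM in plasma and at 2.75 to 26.2 CPM in liver. The log2 difference was 7.73 ± 0.88 (edgeR adjusted p = 1.42e-06), and the lowest plasma library, corn oil 1, was the deepest. miR-1-3p, its partner in skeletal and heart muscle, had 11 reads in plasma and 0 in liver, and miR-133b-3p had 137 against 2. miR-499-5p, of heart and slow muscle, went the other way with 7 reads in plasma and 44 in liver, a DESeq2 log2 difference of -2.24 (DESeq2 adjusted p = 0.00504). Of 8 nervous system miRNAs, 2 were tested and both were higher in plasma, while miR-124-3p, the defining neuronal miRNA, had 0 reads in plasma and 3 in liver. Of the untested members, miR-9a-5p had 2 reads in plasma and 39 in liver and miR-7a-5p had 1 and 34, with DESeq2 log2 differences of -3.02 and -3.47 (DESeq2 adjusted p = 0.00151 and 0.00110). The untested miR-132-3p was higher in plasma, with 42 reads against 15 and a DESeq2 log2 difference of 1.89 (DESeq2 adjusted p = 0.00399). miR-128-3p, abundant in brain, was at 3675, 4129 and 3220 CPM in methylcellulose plasma and at 4180, 1112 and 3104 CPM in corn oil plasma, against 11.6 to 33.0 CPM in liver. Its log2 difference was 7.09 ± 0.43 (edgeR adjusted p = 2.44e-09), and miR-138-5p differed by 2.37 ± 0.28.

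miR-383-5p had 478 reads in plasma, present in all 6 libraries, and none in liver. It was at least 328-fold higher in plasma, against a floor of 3 reads over the liver group, and its plasma levels were 603, 276 and 531 CPM with methylcellulose and 288, 379 and 28.3 CPM with corn oil. miR-488-3p was at 460 to 1214 CPM in plasma and 0 to 6.99 CPM in liver, a log2 difference of 8.33 ± 0.56. miR-6328 had 192 plasma reads against 3 in liver. The ratio was 132, with an exact 95% counting interval of 44.3 to 644 that leaves out the spread between libraries. miR-3473 (5.69 ± 0.43), miR-330-5p (4.92 ± 0.38) and miR-328a-3p (4.91 ± 0.36) were also higher with no overlap. Rows with 10 or more reads in plasma and none in liver numbered 5, namely miR-383-5p (478), miR-149-5p (86), miR-138-2-3p (14), miR-451-3p (12) and miR-1-3p (11), chosen after their values were seen. The reverse held for 17 rows, led by miR-802-3p, miR-192-3p (196 reads) and miR-194-3p (138 reads).

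Plasma of 3 rats given 0.9% saline by vein and sampled at 72 h, not used in any fit here, was measured the same way. Route and time thus differ from the 12 libraries above. miR-383-5p took 0.0431% to 0.0479% of their reads, miR-488-3p 0.0638% to 0.0844%, miR-128-3p 0.335% to 0.495% and miR-133a-3p 0.0995% to 0.303%. miR-191a-5p took 14.2% to 17.4% and miR-122-5p 0.00115% to 0.00590%. The highest of these miR-122-5p shares is far below the lowest liver share of 1.76%. In kidney of 3 saline rats at 72 h miR-10b-5p took 17.2% to 18.5% of reads and miR-194-5p 0.237% to 0.263%.

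Members of the let-7 family, which share a seed, differed from each other. Of its 9 members, 5 were higher in plasma under all 4 scalings and none lower, and the family took 3.11% to 3.68% of liver reads and 11.3% to 16.6% of plasma reads. miR-98-5p was higher by 2.70 ± 0.24 and let-7i-5p by 3.85 ± 0.23, but let-7a-5p stood at -0.12 ± 0.18 and let-7e-5p at -0.73 ± 0.24. Of the 24 seeds with 2 or more tested miRNAs, 7 held calls higher in plasma only and 10 lower only under TMM. 5 held both, 3 of them under all 4 scalings. miR-23a-3p, at 1.59 ± 0.44, and miR-23b-3p, at -2.20 ± 0.42, differ by U19A alone. miR-23a-3p lost its call without any 1 of the 6 liver libraries, so that its direction is less certain than that of miR-23b-3p. They come from separate loci, and so do miR-27a-3p (0.76 ± 0.36, not called) and miR-27b-3p (-2.15 ± 0.27), each lying beside its miR-23 partner. Under the seed AGCAGCA, miR-15b-5p was higher (2.19 ± 0.31), and miR-16-5p (1.16 ± 0.37) was higher under TMM but not under all 4 scalings. miR-195-5p (-3.79 ± 0.41), miR-497-5p (-2.32 ± 0.28) and miR-322-5p (-1.59 ± 0.41) were lower. Under CCCUGAG, miR-351-5p was higher (1.93 ± 0.38) and miR-125b-5p lower (-4.12 ± 0.40). The 4 miR-181 members with the seed ACAUUCA were all higher, from 1.19 for miR-181a-5p to 5.50 for miR-181d-5p. There were 25 pairs of tested miRNAs of equal length that differ by 1 or 2 bases, and reads with mismatches were allowed in the alignment, so values of such pairs can share reads.

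**Figure D4:**
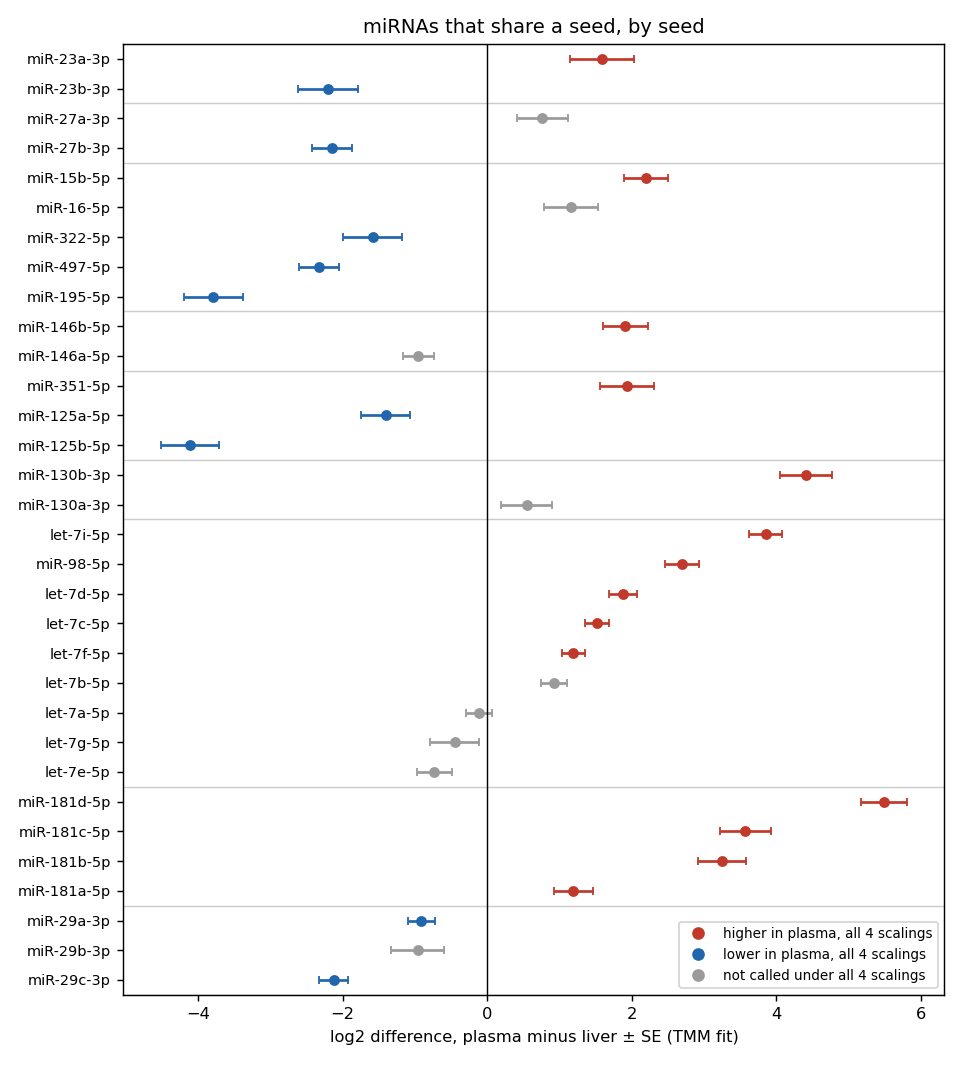
Fitted log2 difference, plasma minus liver, with its SE for miRNAs that share a seed, 1 block per seed. miR-23a-3p (1.59) and miR-23b-3p (-2.20), and miR-15b-5p (2.19) and miR-195-5p (-3.79), lie on opposite sides of 0.

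Tested miRNAs fell into 19 clusters of hairpins within 10 kb of each other in RefSeq, of which 10 held 2 or more calls in 1 direction and 3 held calls in both. The other 6 held 1 call each, and in 5 of them the members had opposite signs. The median range within a cluster was 1.52 on the log2 scale, beside an interquartile range of 3.79 over the 204 distinct miRNAs tested. A range over the few members of a cluster and an interquartile range over many miRNAs are unlike measures. No test was made of them. The miR-181c and miR-181d cluster ran from 3.57 to 5.50, the miR-191 and miR-425 cluster from 2.65 to 3.83, and the 3 tested miRNAs of the miR-192 and miR-194-2 cluster were all lower. An exception was the miR-17-92 cluster, where miR-19a-5p stood at 3.86 and miR-92a-1-5p, the minor arm of miR-92a-1, at -2.15 ± 0.40 with 14 reads in plasma and 128 in liver. GC content was near the same in both sets, with a median of 47.6% in miRNAs higher in plasma, 45.5% in those lower and 45.5% in all 183 with a sequence. The motif GGAG, which has been tied to vesicle loading, was searched on the RNA strand only. It was in 3 of 67 miRNAs higher in plasma (4.48%) and 5 of 69 lower (7.25%). It was in 13 of the 183 (7.10%) and in 8.08% of all rat mature sequences in the table. With calls under all 4 scalings the order turned, to 3 of 53 higher (5.66%) and 2 of 56 lower (3.57%). GGCU, searched likewise, was in 13.4% of those higher, 8.70% of those lower and 12.0% of the 183. These counts are small and no test was made.

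The arms of a hairpin were compared within each library, which cancels the scaling. Of 99 hairpin rows tested with both arms, copies included, 36 (36.4%) differed in arm use by an edgeR test with Benjamini-Hochberg adjustment, 24 (24.2%) with more 3p in plasma and 12 (12.1%) with more 5p. Counted once each, 34 of 92 hairpins were called, 22 with more 3p and 12 with more 5p. Of these 34 called hairpins, 30 held without the 3 shallowest plasma libraries. For miR-151 the 5p share was 9.20%, 13.2% and 6.57% in methylcellulose plasma and 11.1%, 2.41% and 6.21% in corn oil plasma, against 37.1% to 43.8% in liver (edgeR adjusted p = 1.34e-06). For let-7b the 5p share was 98.3% to 99.9% in plasma and 93.5% to 95.3% in liver, on 17 plasma reads and 233 liver reads of the 3p arm. For miR-99b it was lower in plasma, 83.2% to 100% against 98.9% to 99.8%, and the groups overlapped. The major arm changed for miR-345 and miR-410. miR-345 had a median 5p share of 15.2% in plasma and 67.2% in liver, on 88 and 356 reads of both arms, and miR-410 had 1 read of 5p and 30 of 3p in plasma against 107 and 15 in liver. The major arm differed between plasma and liver in 8 of the 92 hairpins, 7 of them among the calls. miR-122 itself had 22 reads of 5p and 18 of 3p in plasma against 71006 and 4043 in liver.

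**Figure D5:**
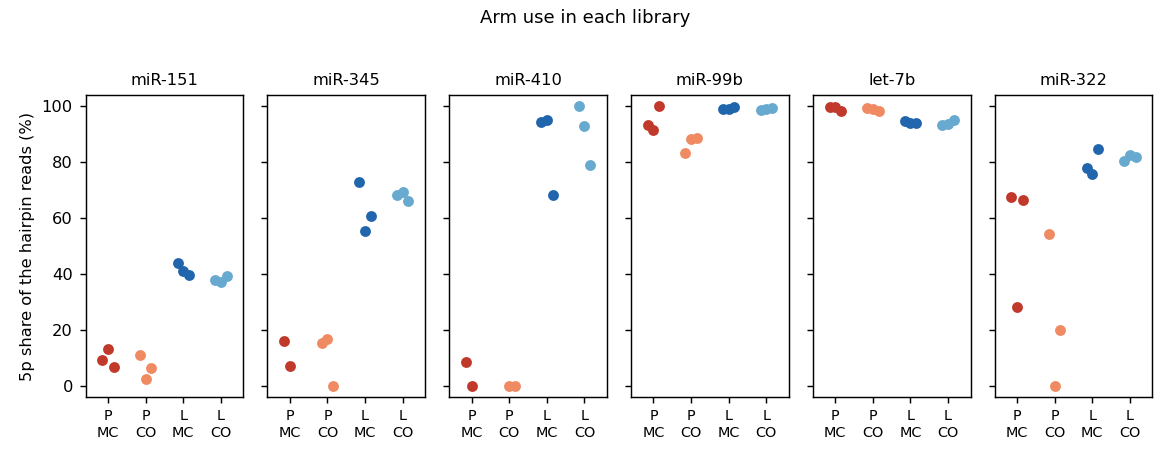
Share of the 5p arm among the reads of a hairpin, in percent, for 6 hairpins in each library that had reads of it. miR-151, miR-345 and miR-410 lie lower in plasma than in liver with no overlap, and let-7b lies higher.

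The comparison was repeated within each vehicle, as contrasts in 1 fit of all libraries that shared the scaling and the estimate of spread. Within methylcellulose 77 rows were higher and 72 lower in plasma, and within corn oil 77 and 77, by edgeR with Benjamini-Hochberg adjustment. Rows called in both vehicles numbered 140 in the same direction and 0 in opposite directions. For miR-122-5p the log2 difference was -10.51 with methylcellulose and -10.69 with corn oil. No row passed the edgeR test of a difference between vehicles (0%; 4 rows at an unadjusted p under 0.05, and 0 by DESeq2). The smallest adjusted p of that edgeR interaction test, 0.0870, belonged to miR-195-3p, with 11 reads in plasma. Between vehicles within plasma edgeR called 0 rows (0%; 6 at an unadjusted p under 0.05, 0 by DESeq2), and within liver 0 rows (0%; 0 at an unadjusted p under 0.05). DESeq2 called 1 in liver, miR-879-5p. Without plasma corn oil 1 the edgeR comparison within plasma called 5 rows. At the other end from the large differences were the abundant miRNAs nearest to 0 in the TMM fit. They were miR-30e-5p (0.06 ± 0.19), miR-107-3p (-0.08 ± 0.26), let-7a-5p, miR-103-3p (0.26 ± 0.32) and miR-28-3p (-0.27 ± 0.22). Their place near 0 rests on the TMM zero point. Without any 1 liver library miR-107-3p (-0.94 to -0.84), let-7a-5p (-0.92 to -0.85), miR-28-3p (-1.06 to -0.97) and miR-30e-5p (-0.76 to -0.67) were all called lower, and so they were without plasma corn oil 2 (-0.72, -1.04, -1.16 and -0.88). With RLE factors miR-107-3p (-0.62), let-7a-5p (-0.59) and miR-28-3p (-0.69) were called lower as well. With total counts, which compare shares of reads, miR-30e-5p (0.59), let-7a-5p (0.43) and miR-103-3p (0.80) were instead called higher in plasma.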

How the data were processed

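miR-seq was read from 1 table of raw counts. Per the study's methods, the authors clipped adaptors from reads of 36 bases, aligned them with OSA v4 to Rnor_5.0 and miRBase v21, left out reads with many genomic locations and deposited the count of reads on each mature miRNA. Nothing was realigned. Libraries were grouped by their labels. The 12 libraries entered edgeR 4.0.16 under R 4.3.3 (filterByExpr at 10 reads per library and 15 in total, TMM, vehicle and sample type as terms, glmQLFit, 2-sided glmQLFTest). Benjamini-Hochberg adjustment ran over all rows tested, with 0.05 as the threshold. RLE, upper-quartile and total-count scaling, DESeq2 1.42.0, other filters, thinning, the replicate block and leaving out libraries were alternatives. A hairpin needed 10 reads of each arm over the 12 libraries. Tables used Python 3.11.15, SciPy 1.17.1, pandas 2.3.3 and NumPy 2.4.6, and the fit was tested on simulated data. miRNAs were named by abundance (10 per sample type), size of difference (12 each way, at least 100 CPM in the higher type, no overlap), the study's liver list, the 2 smallest p of each list, the 5 nearest 0 with at least 500 CPM in both types, 5 hairpins by arm p and 5 miRNAs by the vehicle interaction. Cluster mates, seed mates and other list members were named after their values were seen. The members and lists were chosen with earlier results of these data known.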

Additional observations from a re-analysis of the deposited data

Results flagged for a closer look

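The 6 plasma or 6 liver values of each named miRNA, and a few library measures, were searched for a library far from the other 5. In 14 of 144 groups the gap to the nearest library passed Dixon's 95% critical value as a share of the whole range. That value gives 1 in 20 by chance for normal values only. These were mostly unlogged CPM, some at 0, and a group with reads in only 1 library passes by construction. The number is therefore no measure of an excess. Plasma corn oil 2, with 70736 reads, accounted for 5 of them. It was highest for miR-22-3p (101203 CPM, next 61567), miR-30a-5p (22494, next 13554), miR-30d-5p (15224, next 10127) and miR-133a-3p (11119, next 4231), and lowest for miR-128-3p (1112, next 3104). Plasma corn oil 3 was lowest for miR-98-5p (552 CPM, next 941). Plasma methylcellulose 3, the shallowest library, was at 0 for miR-193a-3p (next 21.2 CPM) and miR-3559-3p (next 55.6 CPM). Single plasma libraries had the only reads of miR-200b-3p (6.21 CPM, methylcellulose 2) and miR-31a-3p (2.16 CPM, corn oil 1). In liver, methylcellulose 1 was highest for miR-193a-3p (939 CPM, next 720) and miR-19a-3p (34.7 CPM, next 26.2), methylcellulose 2 for miR-103-3p (2721 CPM, next 2182) and corn oil 1 for miR-802-5p (1357 CPM, next 1085). The part of depth in these values was not tested.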

How the results depend on the processing

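The number lower in plasma was 88 as reported, 175 with DESeq2 and 201 with no filter on low counts. Thinned to equal depth, 34 rows were higher and 44 lower, since fewer rows were tested. Leaving out 1 library at a time gave 73 to 91 higher and 92 to 144 lower. The highest, 144, came without plasma corn oil 2, which is also the library edgeR took as its TMM reference, and 133 came without liver methylcellulose 3. With each of the 12 libraries as reference the counts ran from 66 to 87 higher and from 88 to 129 lower. Of the 141 rows called under all 4 scalings, 134 kept the call in each of the 12 fits with 1 library left out, 141 with DESeq2, and 63 of 64 still tested at equal depth. With a replicate block the counts were 80 and 84. Same-numbered plasma and liver libraries did not pair, since their deviations correlated from -0.03 to 0.11, with 1 of 6 over 0.1. Hairpins with more 5p in plasma numbered 6 to 15 when 1 library was left out (6 without plasma methylcellulose 2) and those with more 3p 17 to 26. The vehicle comparison gave 0 to 5 calls within plasma, 0 to 0 within liver and 0 to 0 for the interaction. The miR-451-5p to miR-23a-3p difference stayed between -0.66 and -0.64 with other pseudocounts. Of 65 named miRNAs, 50 had the same direction and call under every alternative. Direction reversed for let-7a-5p (0.43) and miR-30d-5p (0.067) with total counts, and for miR-30e-5p with DESeq2 (-0.44), no filter (-0.69), equal depth (-0.57), methylcellulose alone (-0.91) and methylcellulose 3 plasma as reference (-0.72). Leaving out 1 library gave -0.88 to 0.15 for miR-30e-5p and -0.62 to 0.35 for miR-103-3p. miR-26a-5p, miR-107-3p, let-7a-5p and miR-28-3p, not called as reported, were called lower with DESeq2 (-1.12, -0.61, -0.60 and -0.71). The cause was not tested. Depth limits the low plasma counts, since the 6 plasma libraries hold 1187125 reads in all.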
